A study of Homo sapiens with 11 samples.

Results

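Sites of divergent transcription that lie where gene starts of both strands come within 1 kb were examined in Jurkat E6-1 cells, an established human T cell leukaemia line. Divergent transcription is transcription that leaves a common region in both directions, and a site is an interval that the authors listed under that name. A site entered the set when the nearest edge of the site lay no more than 1 kb from an annotated start on the plus strand and from one on the minus strand. The lists came from ribosomal RNA-depleted libraries, 1 of cells treated with 100 µM dieldrin, an organochlorine insecticide, and 1 of cells treated with the solvent DMSO, each for 30 min. The RNA of the genes was measured in 9 poly(A)-enriched libraries in 3 groups of 3, treated for 30 min with 100 µM dieldrin, with 100 µM PMA, a phorbol ester that activates protein kinase C, or with DMSO. All groups used this 1 line, and the labels name no genetic change in it. Whether the replicate libraries are separate cultures is not stated, so the p-values may measure technical spread only. The labels give PMA the same 100 µM dose as dieldrin, which is far above common use and is uncertain.

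In all, 4220 of 118385 sites in the dieldrin list (3.56%) and 4218 of 113601 sites in the DMSO list (3.71%) met the rule on chromosomes 1 to 22 and X, together 8438 of 231986. These pair sites belonged to 2958 gene pairs, each made of the minus-strand and the plus-strand start nearest to the middle of a site, and to 5784 genes. Sites at starts of 1 strand numbered 15234 in the dieldrin list and 15042 in the DMSO list, and sites with no start within 1 kb numbered 98931 and 94341 in the same order. With 1 library behind each list there is no replicate, so differences between lists carry no test, and every interval on a share or a median covers counting error only.

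Many human genes share a promoter region with a neighbour on the other strand. In such bidirectional promoters the 2 genes are read away from each other out of a common nucleosome-depleted stretch, often rich in CpG dinucleotides. Many genes of DNA repair, of the mitochondrial ribosome and of metabolism are arranged in this way, and a long noncoding RNA often takes the place of the second protein-coding gene. Polymerase also starts in the antisense direction at most promoters without a second annotated gene, so a site of divergent transcription does not need a pair.

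The labelled cell type was checked on marker genes. All 13 T cell markers reached 1 CPM, with levels between 2.28 and 834 CPM. CPM is here the gene's share of the summed mean normalised counts over the 9 poly(A) libraries, and 1 CPM stands for a mean of 83.7 counts. Of the markers of other cells, 1 of 4 B cell genes (CD79A, at 34.6 CPM), 0 of 4 myeloid genes, 0 of 4 erythroid and platelet genes and 1 of 4 fibroblast and epithelial genes reached 1 CPM. The depth of single libraries is unknown from the values used.

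Reference promoters of 7 pairs are shown because these pairs hold the largest changes of RNA in the set or stand as examples of the classical arrangement. JUN, IER2 and NFKBID had among the largest rises with dieldrin, the long noncoding genes RP11-390B4.5 and RP11-77P6.2 had among the largest falls, and TK1 and PPAT belong to long-known pairs. Each line gives 250 bases before and 50 bases from the start of the named gene, 5′ to 3′ on its own strand, from RefSeq on build GRCh38.p14. Capitals mark matches, on either strand, to any of 7 motifs.
JUN: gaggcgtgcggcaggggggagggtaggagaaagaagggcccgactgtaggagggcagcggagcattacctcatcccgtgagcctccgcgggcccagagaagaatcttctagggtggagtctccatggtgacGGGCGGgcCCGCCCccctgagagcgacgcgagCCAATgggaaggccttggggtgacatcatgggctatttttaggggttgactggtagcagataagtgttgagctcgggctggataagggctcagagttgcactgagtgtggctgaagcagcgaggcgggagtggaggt
IER2: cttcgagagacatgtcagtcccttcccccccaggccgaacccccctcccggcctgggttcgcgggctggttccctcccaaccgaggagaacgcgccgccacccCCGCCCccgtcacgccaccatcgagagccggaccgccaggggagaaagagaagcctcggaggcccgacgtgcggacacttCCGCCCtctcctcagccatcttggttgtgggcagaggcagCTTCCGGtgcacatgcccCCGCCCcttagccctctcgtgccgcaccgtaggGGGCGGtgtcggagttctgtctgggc
NFKBID: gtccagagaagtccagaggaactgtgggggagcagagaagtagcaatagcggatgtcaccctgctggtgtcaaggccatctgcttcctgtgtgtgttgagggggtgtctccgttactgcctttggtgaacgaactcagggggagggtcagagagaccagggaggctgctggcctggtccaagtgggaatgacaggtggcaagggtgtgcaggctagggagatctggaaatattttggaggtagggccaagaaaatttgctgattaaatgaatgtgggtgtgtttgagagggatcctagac
RP11-390B4.5: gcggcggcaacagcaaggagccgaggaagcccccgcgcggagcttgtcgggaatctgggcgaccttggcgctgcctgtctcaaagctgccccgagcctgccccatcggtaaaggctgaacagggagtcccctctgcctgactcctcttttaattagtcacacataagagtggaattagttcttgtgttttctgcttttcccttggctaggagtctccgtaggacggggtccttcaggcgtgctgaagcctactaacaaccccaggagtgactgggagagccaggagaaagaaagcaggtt
RP11-77P6.2: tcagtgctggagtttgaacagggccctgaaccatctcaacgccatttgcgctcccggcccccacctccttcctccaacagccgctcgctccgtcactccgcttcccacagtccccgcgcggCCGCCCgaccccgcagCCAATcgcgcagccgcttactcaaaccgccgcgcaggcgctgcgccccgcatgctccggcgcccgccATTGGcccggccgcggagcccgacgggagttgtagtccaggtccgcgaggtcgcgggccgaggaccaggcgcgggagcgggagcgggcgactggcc
TK1: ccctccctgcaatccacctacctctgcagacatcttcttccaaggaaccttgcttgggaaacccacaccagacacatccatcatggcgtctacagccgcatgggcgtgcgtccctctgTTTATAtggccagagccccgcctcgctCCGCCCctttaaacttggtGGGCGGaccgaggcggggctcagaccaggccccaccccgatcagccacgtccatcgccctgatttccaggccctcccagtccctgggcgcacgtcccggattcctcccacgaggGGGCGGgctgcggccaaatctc
PPAT: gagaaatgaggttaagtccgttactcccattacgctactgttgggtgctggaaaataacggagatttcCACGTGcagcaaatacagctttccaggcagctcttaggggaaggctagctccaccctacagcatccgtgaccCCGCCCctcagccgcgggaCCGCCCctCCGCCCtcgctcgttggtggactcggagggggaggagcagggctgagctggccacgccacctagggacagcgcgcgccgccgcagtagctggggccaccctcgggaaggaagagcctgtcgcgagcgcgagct

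On GRCh38.p14 these windows lie at chr1:58783998-58784297 (minus strand) for JUN, chr19:13150161-13150460 (plus strand) for IER2, chr19:35902254-35902553 (minus strand) for NFKBID, chr10:17643869-17644168 (minus strand) for RP11-390B4.5, chr10:86521697-86521996 (plus strand) for RP11-77P6.2, chr17:78187155-78187454 (minus strand) for TK1 and chr4:56435566-56435865 (minus strand) for PPAT. In 6 of the 7 windows the RefSeq start of the partner lies inside the printed bases. The start of STX10, the partner of IER2, lies 36 bases upstream of the IER2 start, that of AFMID 158 bases upstream of TK1, and that of PAICS 137 bases upstream of PPAT. JUN is the exception, with LINC01135 starting 1104 bases upstream. The IER2 window was 69.7% GC with 27 CpG dinucleotides, and that of RP11-77P6.2 was 72.7% GC with 40. The NFKBID window was 53.7% GC with 3 CpG and had no match to any motif searched, and that of RP11-390B4.5 was 57.3% GC with 14 CpG and also had no match.

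The motifs were the GC box GGGCGG, the CCAAT box CCAAT, the ETS site CCGGAAG, the TATA box TATAAA, the cyclic AMP response element TGACGTCA, the AP-1 site TGACTCA and the E-box CACGTG, searched on both strands with overlaps allowed. The JUN window held 2 GC boxes and 1 CCAAT box, the IER2 window 4 GC boxes and 1 ETS site, the TK1 window 3 GC boxes and 1 TATA box, and the PPAT window 3 GC boxes and 1 E-box. Of the 3813 protein-coding pair genes, 83.8% had a RefSeq promoter. An ETS site, the motif of GABPA and related factors, stood in 25.4% of these promoters, against 18.4% of the promoters of protein-coding genes at sites with starts of 1 strand and 10.7% of all 27305 RefSeq promoters of the same length. A GC box stood in 70.8% of the pair promoters, 72.4% of those at 1-strand sites and 44.6% of all promoters. A TATA box stood in 4.57%, 5.44% and 12.0% of the same 3 sets. The median GC content of pair promoters was 65.0%, against 65.7% at 1-strand sites and 58.3% over all promoters. A match is a run of letters and was not tested for binding.

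The pairs took 2 arrangements. In 1583 pairs (53.5%) the starts stood head to head, with the minus-strand start to the left and a median of 171 bp between the starts. In the other 1375 pairs, here named overlapping pairs, the plus-strand start lay to the left, with a median of 467 bp from start to start. The name rests on the order of the starts, and which parts of the genes overlap was not checked. The libraries were stranded per the labels, but no source used here states how strand was used in counting, so the reads of 2 overlapping genes may be divided wrongly. Pair genes were mostly protein-coding (3813 of 5784, 65.9%), with 1496 long noncoding genes, 213 pseudogenes, 86 of other types and 176 with no type in the annotation used. Both genes were protein-coding in 1183 pairs, and a protein-coding gene stood beside a long noncoding one in 1297. The pair genes made up 20.4% of all protein-coding genes and 31.9% of genes of at least 1 CPM. Chromosome 1 held the most pairs (318), and chromosomes 17 and 19 came next with 198 and 196, the count of chromosome 2 also being 196.

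Levels within a pair were far apart. Per kilobase of exon, the higher gene of a pair of protein-coding genes had a median of 5.05 times the level of the lower one, and in pairs of a protein-coding and a long noncoding gene the median ratio of levels per kilobase was 21.3. Across the 1183 pairs of protein-coding genes, the levels per kilobase of the minus-strand and the plus-strand gene had a Spearman rho of 0.088, a description across genes that share libraries. PPAT and PAICS, which encode enzymes of purine synthesis, had levels of 14.3 and 81.1 CPM per kilobase over all 9 libraries. TK1, the thymidine kinase of the cytosol, had 24.5 and AFMID, a formamidase of tryptophan breakdown, 6.83 CPM per kilobase.

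The first question was how well the 2 lists shared these sites. Of the pair sites, 3256 of 4220 in the dieldrin list overlapped a DMSO site by at least 1 bp (77.2%, exact 95% interval 75.9 to 78.4%), and 3241 of 4218 in the DMSO list overlapped a dieldrin site (76.8%, 75.5 to 78.1%). Sites at starts of 1 strand overlapped less often, at 62.3% in the dieldrin list (61.5 to 63.1%) and 62.9% in the DMSO list (62.2 to 63.7%). Sites with no start within 1 kb did so at 37.1% and 39.2% in the same order. These intervals do not overlap between the classes in either list.

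Longer sites overlapped more often, so the classes were also set side by side within bins of length. Among sites of 151 to 250 bp, 67.1% of pair sites in the dieldrin list overlapped a DMSO site (64.0 to 70.1%), against 52.1% of 1-strand sites (50.6 to 53.7%) and 30.6% of sites with no start (30.1 to 31.1%). In the DMSO list the same bin gave 67.9%, 53.4% and 33.1%. Above 800 bp the shares in the dieldrin list were 95.5%, 92.2% and 84.3%, and the intervals of pair and 1-strand sites then overlapped, 93.3 to 97.2% and 90.5 to 93.6%. The overlap counted here does not ask that the sites have the same edges: among 2831 pair sites that were each other's best match, 2 had identical coordinates, and the median overlap was 54.5% of the longer site.

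**Figure D1:**
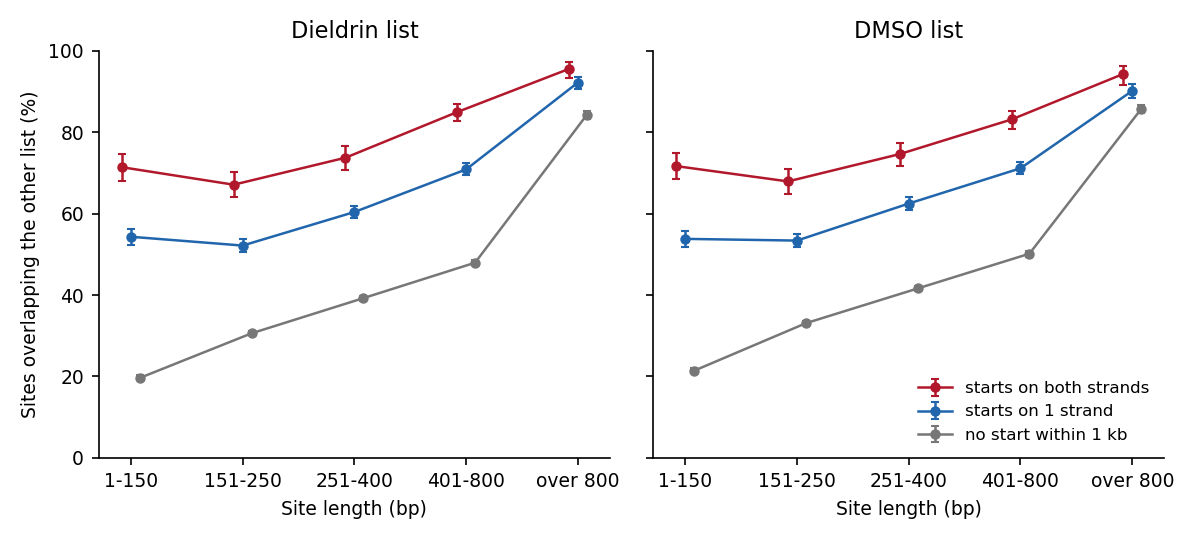
Share of sites that overlapped a site of the other list (y axis, %) by site length (x axis, bp), for the dieldrin list on the left and the DMSO list on the right; points are shares and bars exact 95% intervals. Sites at starts of both strands lie above the other classes in every length bin, for example 71.4% against 54.3% and 19.6% at 1 to 150 bp in the dieldrin list.

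Pair sites had a median length of 302 bp in the dieldrin list (95% interval 291 to 314 bp) and 300 bp in the DMSO list (290 to 311 bp). The medians of 1-strand sites were 280 and 281 bp, and those of sites with no start 252 and 249 bp, dieldrin list first. Overlapping pair sites were longer, at 341 bp in the dieldrin list and 327 bp in the DMSO list, than pair sites without an overlap, at 235.5 and 239 bp. Among the 2831 best-matching sites, 1437 were longer and 1384 shorter in the dieldrin list, with a median difference, dieldrin minus DMSO, of 3 bp and quartiles of -140 and 157 bp. A site at least 2 times longer in the dieldrin list was found 489 times, and one at least 2 times longer in the DMSO list 440 times. The lengths of matched sites had a Spearman rho of 0.526 between the lists, a description over sites of 2 libraries.

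Single promoters show how loose this match can be. At JUN, which encodes a subunit of the transcription factor AP-1, the dieldrin list had 1 site of 132 bp at chr1:59249769-59249900 (hg19, which all site positions use) over the JUN start, and the DMSO list had 1 site of 66 bp at chr1:59250004-59250069 between the starts, without overlap. At IER2 and STX10 the dieldrin list had sites of 472 and 410 bp, the second at chr19:13261185-13261594 over both starts, and the DMSO list had sites of 519 and 54 bp at nearly the same places. At NFKBID and HCST a site of 1036 bp in the dieldrin list overlapped one of 303 bp in the DMSO list, and the dieldrin list had another of 2327 bp to the left over NFKBID, which overlapped a DMSO site of 861 bp. At PPAT and PAICS both lists had 1 site on each side of the pair, of 257 and 296 bp in the dieldrin list and of 752 and 300 bp in the DMSO list. At TK1 and AFMID the sites began at the same base and measured 113 bp in the dieldrin list and 233 bp in the DMSO list.

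The rule left some near misses. In the dieldrin list a site at RP11-188D8.1 and MAN1A2 was just inside, 1000 bp from the minus-strand start, and one beside MUC1 was just outside at 1002 bp. In the DMSO list the site at MYCN and MYCNOS was just inside, 1000 bp from the MYCN start, and one beside RASSF1 was just outside at 1001 bp.

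Sites were not centred on the pairs. Of the 2339 sites of head-to-head pairs in the dieldrin list, 703 had their midpoint between the starts, 1143 to the left of both, over the minus-strand gene, and 493 to the right, over the plus-strand gene. In the DMSO list these counts were 717, 1084 and 537 of 2338. The share on the left among sites outside the starts was 69.9% in the dieldrin list (67.6 to 72.1%) and 66.9% in the DMSO list (64.5 to 69.2%), and it was 70.2% and 68.4% in pairs of protein-coding genes. The median distance of the midpoint from the middle of a head-to-head pair was -111.5 bp in the dieldrin list and -88.75 bp in the DMSO list. At starts of 1 strand the median distance from a plus-strand start was -52 bp in the dieldrin list and -41 bp in the DMSO list, and from a minus-strand start -141.5 and -126.5 bp. The share on the left there was 55.4% and 53.5% at plus-strand starts and 59.2% and 58.5% at minus-strand starts. Left is toward lower coordinates, which is upstream of a plus-strand gene and inside a minus-strand gene, and the shift was toward lower coordinates at starts of both strands. The site caller and its way of placing edges are not stated in the sources used here, so the positions themselves may be offset, and which gene a site lies over is then uncertain.

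**Figure D2:**
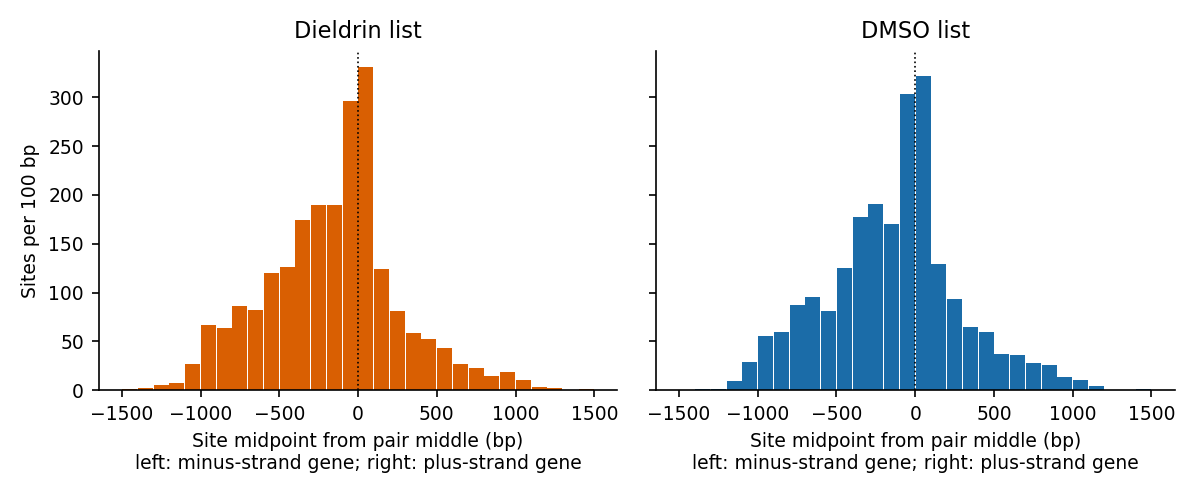
Distance of site midpoints from the middle between the 2 starts (x axis, bp; y axis, sites per 100 bp) for head-to-head pairs with starts within 1 kb, with the dieldrin list on the left and the DMSO list on the right. In both lists the peak is at the middle and the left side, over the minus-strand gene, holds more sites than the right.

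Sites between the starts overlapped the other list more often than sites outside them. For head-to-head pairs the shares were 83.8% and 74.5% in the dieldrin list and 84.2% and 72.4% in the DMSO list, although the sites between the starts were shorter, with medians of 199 and 316.5 bp in the dieldrin list and of 211 and 320 bp in the DMSO list. Both starts lay inside 1 site at 670 pair sites of the dieldrin list and at 659 of the DMSO list.

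Seen from the annotation, 1909 head-to-head pairs had starts within 1 kb of each other, and 1390 of them had a pair site in the dieldrin list (72.8%, 70.8 to 74.8%) and 1392 in the DMSO list (72.9%, 70.9 to 74.9%). The share moved with the RNA of the less abundant gene, taken by CPM and so without regard to length. Below 0.1 CPM it was 39.2% in the dieldrin list and 39.3% in the DMSO list, and between 0.1 and 1 CPM 91.3% and 92.5%. It was 98.9% in the dieldrin list and 97.3% in the DMSO list between 10 and 100 CPM, and all 15 pairs of at least 100 CPM had a site in both lists (95% interval from 78.2%). Of 305 pairs whose more abundant gene also stayed under 0.1 CPM, 5.90% had a site in the dieldrin list and 4.92% in the DMSO list. RNA levels came from the poly(A) libraries and sites from the ribosomal RNA-depleted ones.

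**Figure D3:**
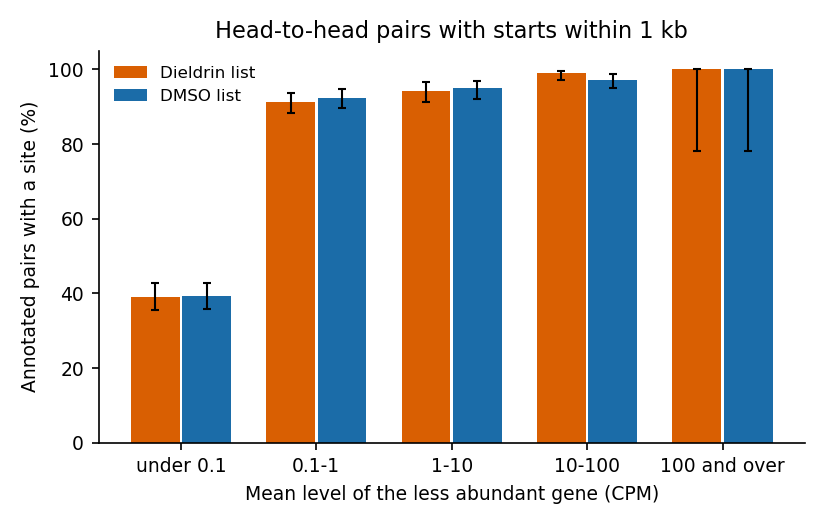
Share of annotated head-to-head pairs with a site (y axis, %; bars start at 0, error bars are exact 95% intervals) by the mean level of the less abundant gene (x axis, CPM), dieldrin list left of DMSO list in each bin. About 39% of the pairs under 0.1 CPM had a site and over 90% of those from 0.1 CPM up.

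A site was present in both lists at 2450 of the 2958 pairs (82.8%), in the dieldrin list only at 248 and in the DMSO list only at 260. The pairs of 1 list held less RNA. Their less abundant gene had a median of 0.0758 CPM for pairs of the dieldrin list only and 0.137 CPM for pairs of the DMSO list only, against 1.37 CPM for pairs of both lists. The median unshrunken log2 change with dieldrin, over genes with an adjusted p, was -0.03 for pairs of the dieldrin list only, 0.00 for pairs of the DMSO list only and 0.00 for pairs of both lists. In the first of these groups 6 of 360 tested genes were higher (1.67%) and 6 lower (1.67%) with dieldrin. In the second 5 of 400 were higher (1.25%) and 4 lower (1%). In pairs of both lists 55 of 4490 were higher and 54 lower. The shares over all genes tested were 1.28% higher and 1.02% lower, and the groups were not tested against each other. Among the pairs of the dieldrin list only were IER3, an early response gene, and HSPA1A, which encodes the inducible heat shock protein Hsp70. Among the pairs of the DMSO list only were DUSP5, a phosphatase of MAP kinases, and MYCN. Each of IER3, HSPA1A and DUSP5 rose with dieldrin, so risen genes occurred in pairs counted for either list. A pair counts for a list only if its 2 starts are the nearest to the midpoint of a pair site. Whether the dieldrin list has a site at the DUSP5 start alone was not checked. A pair counted for 1 list can still lie beside a site of the other: the IER3 site of 267 bp in the dieldrin list overlapped a DMSO site of 1133 bp whose nearest starts were those of FLOT1 and XXbac-BPG252P9.10.

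The RNA of pair genes was then compared between treatments with the authors' deposited table, which gives each gene a shrunken log2 change with its standard error, an unshrunken change and an adjusted p, with 3 libraries a group. Genes with an adjusted p under 0.05 are called. With dieldrin, 65 of 5167 tested pair genes were higher (1.26%) and 61 were lower (1.18%), in the authors' deposited table. Of all genes with an adjusted p, 1.28% were higher and 1.02% lower, so the shares among pair genes lay near the background. With PMA, 26 of 4968 tested pair genes were higher (0.523%) and 8 lower (0.161%), against 0.528% higher and 0.0908% lower over all genes. The median unshrunken log2 change of the pair genes with dieldrin was -0.004, against 0.002 over all genes tested. Comparisons with dieldrin and with PMA share the 3 DMSO libraries.

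By type, 53 of the 65 pair genes that rose with dieldrin were protein-coding and 7 long noncoding, whereas of the 61 that fell 37 were protein-coding and 24 long noncoding. Protein-coding pair genes were higher with dieldrin in 1.42% of 3737 tested, beside 1.37% of all protein-coding genes tested, and lower in 0.990%, beside 1.02%. With PMA they were higher in 0.540% of 3706, beside 0.538%, and lower in 0.054%, beside 0.0316%. Long noncoding pair genes were lower with dieldrin in 24 of 1151 tested (2.09%), beside 1.29% of all long noncoding genes tested, and higher in 7 (0.608%), beside 0.979%. The median unshrunken log2 change of long noncoding pair genes was -0.06 with dieldrin, against -0.01 over all long noncoding genes tested. It was -0.11 with PMA, against -0.06. Of 1026 long noncoding pair genes tested with PMA, 6 were called lower (0.585%), beside 0.457% of all long noncoding genes, and 4 higher (0.390%), beside 0.495%.

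The largest rises with dieldrin were JUN, IER2, NFKBID, IER3, JUND and VMP1. Group levels given here were worked out from the mean over the 9 libraries and the 2 unshrunken changes of the authors' deposited table, which holds no values per library, so they have no error of their own. JUN stood at 311 CPM with dieldrin, 46.6 CPM with PMA and 8.02 CPM with DMSO, and rose by a shrunken log2 change of 3.67 ± 0.11 (SE, adjusted p 1.66e-246) with dieldrin and of 1.61 ± 0.11 (adjusted p 2.07e-46) with PMA. LINC01135, the noncoding gene 1038 bp away on the other strand, stood at 0.132, 0.102 and 0.0786 CPM in the same order and was not called (0.08 ± 0.07 with dieldrin). JUN was highest in the dieldrin group and lowest in the DMSO group, and LINC01135 stayed under 1 CPM in each.

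IER2, an immediate-early gene whose start lies 32 bp from that of STX10, stood at 321 CPM with dieldrin, 292 CPM with PMA and 42.7 CPM with DMSO. It rose by a shrunken log2 change of 2.16 ± 0.10 (adjusted p 1.59e-96) with dieldrin and 2.06 ± 0.10 (adjusted p 6.47e-87) with PMA in the authors' deposited table. STX10, which encodes a syntaxin of the Golgi, stood at 80.8 CPM with dieldrin, 81.4 CPM with PMA and 82.5 CPM with DMSO, with changes of -0.02 ± 0.08 in both comparisons. Over a spacing of 32 bp, 1 gene of the pair rose and the change of the other was smaller than its standard error.

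NFKBID, an inhibitor of the NF-kappa-B family that acts in the nucleus, stood at 33.9 CPM with dieldrin, 8.14 CPM with PMA and 6.28 CPM with DMSO, a shrunken log2 change of 1.61 ± 0.11 (adjusted p 2.9e-43) with dieldrin. Its change with PMA, 0.22 ± 0.11, was not called. HCST, which encodes the signalling adaptor DAP10 and starts 177 bp away, stood at 12.8, 13.1 and 13.4 CPM in dieldrin, PMA and DMSO cells and was not called. VMP1, which encodes a membrane protein of autophagy, stood at 136 CPM with dieldrin, 67.9 CPM with PMA and 63.9 CPM with DMSO (0.97 ± 0.07 with dieldrin, adjusted p 3.5e-36). Its partner PTRH2, a peptidyl-tRNA hydrolase of mitochondria, was at 69.6, 71.8 and 63.6 CPM and had a change of 0.12 ± 0.07 with dieldrin, not called. Both genes overlap at their 5′ ends over 434 bp.

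With PMA the largest rises after IER2, IER3 and JUN were ZC3H12A, TNFAIP3 and RP11-199F11.2. ZC3H12A, a ribonuclease that degrades inflammatory mRNAs, stood at 23.1 CPM with PMA, 9.95 CPM with dieldrin and 7.31 CPM with DMSO, a shrunken log2 change of 1.08 ± 0.11 (adjusted p 5.87e-19) with PMA. TNFAIP3, which encodes the NF-kappa-B inhibitor A20, stood at 57.5 CPM with PMA, 40.9 CPM with dieldrin and 23.3 CPM with DMSO. It was called higher with both agents. Their noncoding partners LINC01137 and RP11-356I2.4 were not called, with PMA changes of -0.04 ± 0.11 and -0.06 ± 0.08.

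The 6 largest falls with dieldrin among genes of at least 1 CPM were all long noncoding genes beside a protein-coding gene. RP11-629O1.2, beside the sialyltransferase gene ST3GAL1, stood at 1.27 CPM with dieldrin, 2.22 CPM with PMA and 3.24 CPM with DMSO (-0.73 ± 0.11, adjusted p 2.31e-08 with dieldrin). RP11-390B4.5, beside STAM, an adaptor of endosomal sorting, stood at 2.31 CPM with dieldrin, 3.22 CPM with PMA and 4.72 CPM with DMSO. RP13-1032I1.7, beside MRPL12 of the mitochondrial ribosome, stood at 3.996 CPM with dieldrin, 4.66 CPM with PMA and 7.45 CPM with DMSO and was called lower with both agents. RP11-77P6.2, beside WAPAL, whose product releases cohesin from chromatin, stood at 2.43 CPM with dieldrin, 2.94 CPM with PMA and 4.73 CPM with DMSO and was also called lower with both. RP11-572O17.1 lies beside SLBP, the binding protein of histone mRNA stem loops, and RP11-37C7.3 beside FSIP1. The 6 protein-coding partners had changes between -0.08 and 0.11 with dieldrin and none was called.

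The falls with PMA were few. MYCN, a transcription factor gene of the MYC family, stood at 1.10 CPM with PMA, 1.70 CPM with dieldrin and 3.12 CPM with DMSO, a shrunken log2 change of -0.52 ± 0.11 (adjusted p 0.00136) with PMA. The other 5 of the largest falls were long noncoding genes: AL773604.8 beside UBE2G2, CTB-129O4.1 beside MAPK9, RP13-1032I1.7, RP11-77P6.2 and a gene beside BMPR1A.

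**Figure D4:**
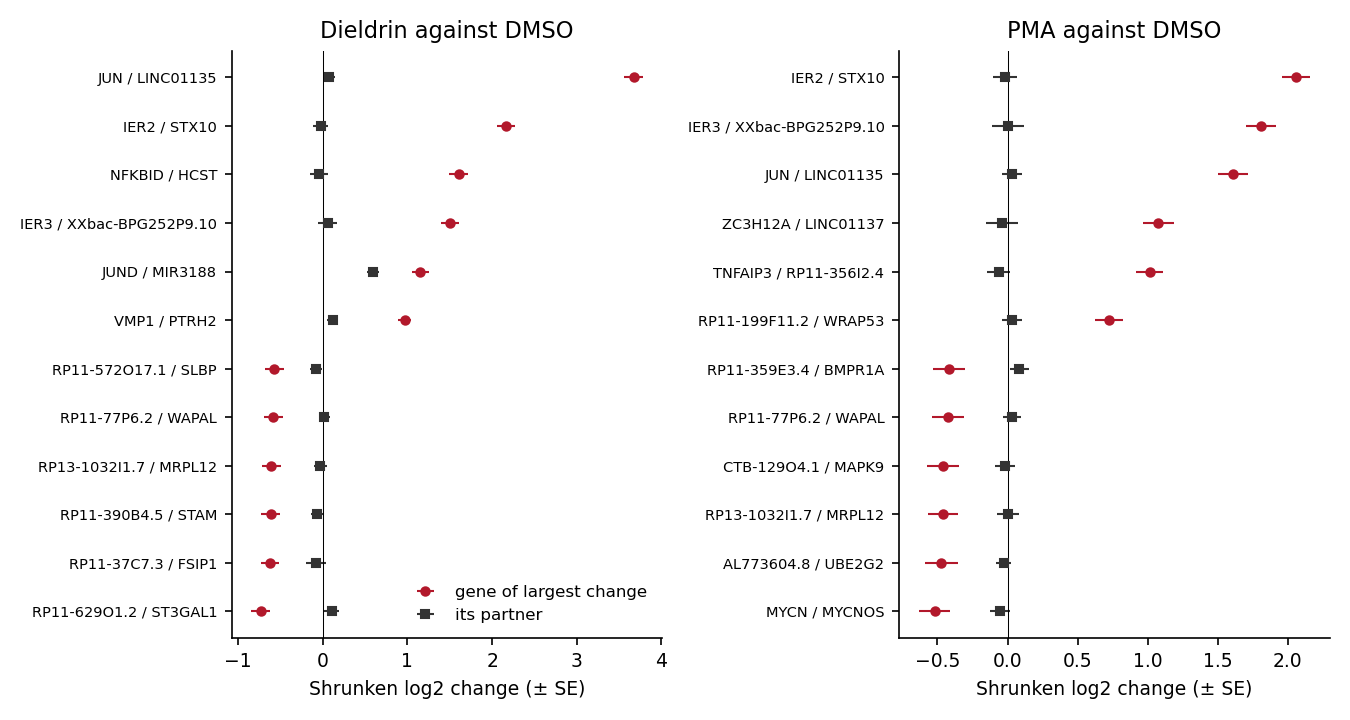
Shrunken log2 change ± SE (x axis) of the 6 genes with the largest rises and the 6 with the largest falls (red circles) and of their pair partners (black squares), dieldrin against DMSO on the left and PMA against DMSO on the right, from the authors' deposited table. The partners lie near 0 except MIR3188, the partner of JUND, at 0.59 with dieldrin.

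The partners were then counted over all called genes. Over all genes tested, 1.28% were called higher and 1.02% lower with dieldrin, and 0.528% and 0.0908% with PMA. Of the 55 tested partners of genes that rose with dieldrin, 8 were called higher and 47 were not called. The 8 are the genes of the 4 pairs below, so each of those pairs enters from both sides. For 44 of these 47 the shrunken change ± 1.96 standard errors held 0, and their median change was 0.00, with a range of -0.23 for HIST1H2BC to 0.17 for UIMC1. Of the 56 tested partners of genes that fell with dieldrin none was called, 5 had an unadjusted p under 0.05, the interval of 51 held 0, and the median was -0.02. With PMA, 21 partners of risen genes and 8 of fallen genes were tested, none was called by the authors' table, and 0 and 1 of them had an unadjusted p under 0.05. A partner that was not called is not shown to be unchanged.

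Both genes of a pair were called with dieldrin in 4 pairs, each time in the same direction. JUND, another AP-1 subunit gene, stood at 189 CPM with dieldrin, 89.0 CPM with PMA and 67.9 CPM with DMSO, and MIR3188, a microRNA gene starting 455 bp away, at 0.594, 0.0445 and 0.0242 CPM, the last a mean of 2.02 counts. The histone genes HIST3H2A and HIST3H2BB, 248 bp apart, stood at 10.1 and 0.714 CPM with dieldrin, 5.26 and 0.299 CPM with PMA and 4.01 and 0.261 CPM with DMSO. IQCB1, a gene of the cilium base, and EAF2, which encodes a cofactor of the elongation factor ELL, stand 104 bp apart and rose by 0.20 ± 0.06 (adjusted p 0.0295) and 0.34 ± 0.09 (adjusted p 0.0082). The starts of RP11-196G18.22 and RP11-196G18.24 lie 3208 bp apart, and RP11-196G18.24 lies wholly inside RP11-196G18.22. A wrong division of reads between the strands there cannot be told apart from a rise of both. With PMA no pair had both genes called in the authors' table, and 4 pairs had both genes at an unadjusted p under 0.05, 2 in the same direction and 2 in opposite directions. With dieldrin 26 pairs had both genes at an unadjusted p under 0.05, 14 in the same direction and 12 in opposite directions.

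Across the 1430 pairs whose genes both reached 1 CPM, the unshrunken changes of the 2 genes had a Pearson r of 0.039 with dieldrin and -0.014 with PMA, and the signs were the same in 50.9% and 49.4% of pairs. For head-to-head pairs the dieldrin r was 0.009 over 734 pairs, and for overlapping pairs 0.075 over 696. These are descriptions across pairs that share all libraries.

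**Figure D5:**
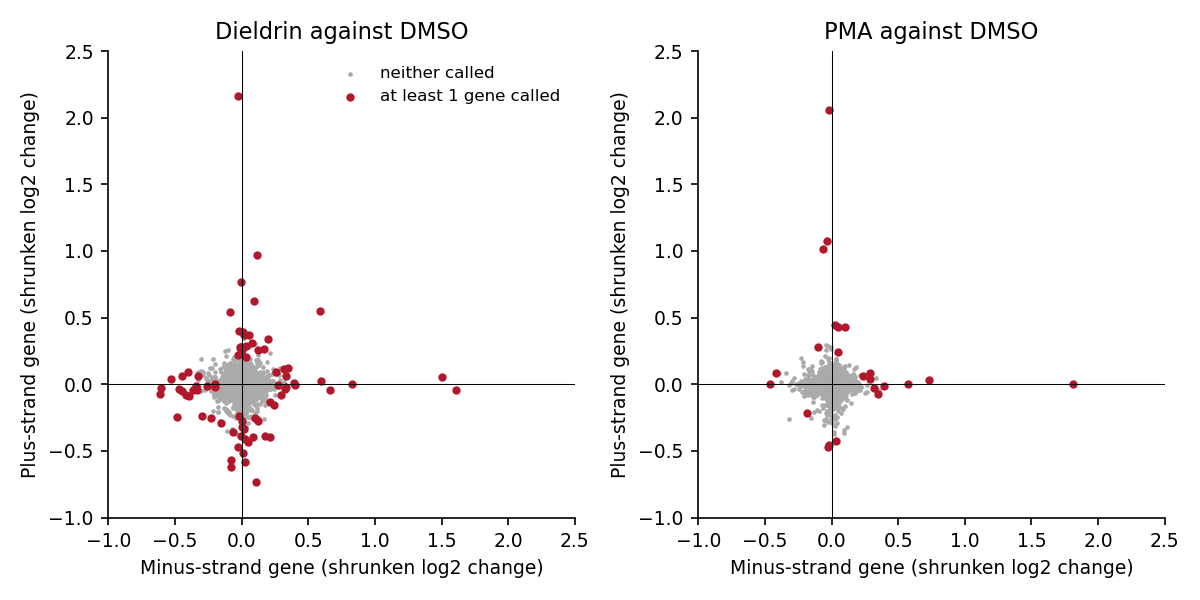
Shrunken log2 change of the minus-strand gene (x axis) and the plus-strand gene (y axis) for the 1430 pairs with both genes of at least 1 CPM, dieldrin against DMSO on the left and PMA against DMSO on the right. Red points, pairs with at least 1 called gene, lie mostly along the axes, where 1 gene changed and the other is near 0.

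Gene groups of this tissue and treatment differed in how many of their members sat at pair sites. Of 77 DNA repair and checkpoint genes 42 were pair genes (54.5%), and of 70 histone genes 35 (50%). Of 79 mitochondrial ribosomal protein genes 33 were pair genes (41.8%), and of 63 replication and cell cycle genes 24 (38.1%). The shares were 44.4% for chaperones, 44.3% for splicing factors, 40.5% for aminoacyl-tRNA synthetases, 34.8% for proteasome subunits and 27.3% for snoRNA host genes. Over all protein-coding genes the share was 20.4%, and over genes of at least 1 CPM it was 31.9%. Of 82 immediate-early and early response genes only 11 were pair genes (13.4%).

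Most of these early response pair genes rose, but the gene lists were chosen with earlier results of these data known. The shares called in this group and in those that follow are therefore descriptions only. With dieldrin 7 of 11 were higher (JUN, IER2, IER3, JUND, BTG2, TNFAIP3 and DUSP5), and with PMA 6 of 11. The medians of unshrunken log2 change over the 11 were 0.81 with dieldrin and 0.45 with PMA. Of the tested list members outside pairs, 35 of 63 were higher with dieldrin and 22 of 62 with PMA. Over all genes tested, 1.28% were higher with dieldrin and 0.528% with PMA. Among histone genes, 6 of 26 tested pair genes rose with dieldrin, with a median change of 0.04, and 0 of 23 outside pairs did, 2 of these at an unadjusted p under 0.05. The 6 were HIST3H2A, HIST3H2BB, HIST1H2AC, HIST2H2BE, HIST1H2BN and H3F3B. HIST1H2AC rose by 0.64 ± 0.11 (adjusted p 5.42e-07), while HIST1H2BC, 219 bp away, had -0.23 ± 0.11 and was not called. Replication-dependent histone mRNAs lack a poly(A) tail, so poly(A)-enriched libraries catch mainly their polyadenylated forms. Histone genes are also near-identical copies of each other, and reads can be shared among them.

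Among chaperone genes 2 of 24 pair genes rose with dieldrin, beside 3 of 29 list members outside pairs and 1.28% of all genes tested. HSPA1A stood at 1.23 CPM with dieldrin, 0.311 CPM with PMA and 0.170 CPM with DMSO (0.56 ± 0.09, adjusted p 4.41e-08 with dieldrin), a near-identical copy of HSPA1B, and HSPA1L at 0.122, 0.126 and 0.110 CPM was not called. DNAJB9, a cochaperone of the endoplasmic reticulum, rose with dieldrin (0.37 ± 0.10) and with PMA (0.43 ± 0.10). Of the 6 snoRNA host genes in pairs, 4 rose with dieldrin: ZFAS1, GAS5, SNHG1 and TAF1D. Of the 16 tested members outside pairs, 2 were higher and 1 lower with dieldrin, and with PMA 2 of the 6 in pairs and 2 of the 16 outside were higher, beside 1.28% of all genes tested with dieldrin and 0.528% with PMA. GAS5 stood at 328 CPM with dieldrin, 310 CPM with PMA and 245 CPM with DMSO, and its partner ZBTB37 was not called (0.01 ± 0.07).

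In 6 further groups no pair gene was called. Of 154 tested pair genes of DNA repair, replication, the mitochondrial ribosome, aminoacyl-tRNA synthesis, the proteasome and splicing, none was called with dieldrin or with PMA in the authors' table, and 7 and 3 had an unadjusted p under 0.05. Of 206 tested members of the same lists outside pairs, 2 were called with dieldrin and 0 with PMA, and 11 and 4 had an unadjusted p under 0.05, so the lists were little called in or out of pairs. Over all genes tested, 1.28% were higher and 1.02% lower with dieldrin. The pair genes' medians of unshrunken log2 change per group lay between -0.03 and 0.04 with dieldrin. Of 33 pairs listed from textbooks 22 were found. The pair of JUN and LINC01135 was left out because its change was among the largest. The other 21 pairs had a site in the dieldrin list at 20 and in the DMSO list at 21. Their genes changed between -0.12 (NBR2) and 0.21 (NPAT) with dieldrin on the shrunken log2 scale, 3 of 43 had an unadjusted p under 0.05, and none was called. JUN was itself called, so this range and the lack of calls hold only for the pairs kept.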

How the data were processed

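Per the labels, the 9 poly(A)-enriched and 2 ribosomal RNA-depleted libraries were stranded and paired-end. STAR, edgeR and hg19 are named in the submitters' processing notes, without settings. No source used here gives the site caller, counting tool or annotation release. Per the file headers, the authors' comparison tables give each of 44416 genes a mean normalised count (signal), shrunken and unshrunken log2 changes, a standard error and a statistic (score), and a p-value with its adjusted p, under column names of DESeq2 results. These deposited p-values were used as they stand, since no values per library were used, and no count model was fitted. Of these, 1088 genes have no p-value, 19280 genes have an adjusted p with dieldrin and 17612 with PMA. The deposited site lists have no values beyond positions.

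A pair was the nearest start to the site midpoint on each strand, starts being gene ends as the authors' table gives them. Sites overlapped from 1 bp. CPM is the mean over the sum of means. Gene types and exon lengths came by gene ID from GENCODE release 29, matching 41842 IDs; its coordinates were not used. Promoters came from RefSeq by Ensembl gene ID, and where that failed by symbol or synonym. Intervals on shares are exact binomial (Clopper-Pearson) at 95%, those on medians use order statistics. Site functions were tested on simulated data. Software was scipy 1.17.1, pandas 2.3.3, numpy 2.4.6, matplotlib 3.10.9 and Python 3.11.15.

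Members, gene lists and named rules were chosen with earlier results of these data known. Named genes were, per comparison, the 6 largest rises and 6 largest falls of called pair genes of at least 1 CPM by the shrunken change, pairs with both genes called, textbook pairs found, up to 2 called members per list, and sites at the limits of the rule. Further called list members were named after their values were seen.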

Additional observations from a re-analysis of the deposited data

How the results depend on the processing

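Alternatives gave 82 values for 12 results, of which 46 were labelled near the main value and 36 moved. For those that moved, the cause was not tested beyond the alternative's own construction. The label near was looser for counts than for shares and medians. It took in 2867 dieldrin and 2834 DMSO pair sites with a 500 bp window, and 6327 and 6217 with 2 kb. The number of pair sites thus depended on the window. Also labelled near were 46 pair genes higher with dieldrin at an adjusted p under 0.01, against 65 in the main result. The main counts of pair sites, 4220 in the dieldrin list and 4218 in the DMSO list, became 670 and 659 with both starts inside the site, 2340 and 2342 with starts of genes of at least 1 CPM only, 1807 and 1844 with protein-coding starts only, and 2464 and 2470 with sites of at least the median length. The share of pair sites overlapping the other list, 77.2% for dieldrin and 76.8% for DMSO, became 55.1% and 56.3% when most of the site had to overlap (0.5 or more of its length), 13.2% and 13.2% when nearly all of both sites had to (0.8 or more), 83.3% and 82.4% with a 500 bp window, 69.6% and 70.4% with 2 kb, 91.5% and 92.1% with both starts inside, 80.9% and 80.8% with starts of genes of at least 1 CPM, and 66.5% and 65.7% with long sites only. The median lengths of 302 bp (dieldrin) and 300 bp (DMSO) became 328 and 321 bp at 500 bp, 287 and 285 bp at 2 kb, 489.5 and 493 bp with both starts inside, and 341 and 327 bp for overlapping sites only. At an adjusted p under 0.01 the pair genes lower with dieldrin numbered 34, those higher with PMA 16 and those lower with PMA 3; adjusting over all p-values given left 5 lower with PMA. At an unadjusted p under 0.05, both genes were past it in 26 pairs with dieldrin and 4 with PMA. No paired analysis was possible because the tables hold no values per library, and for the same reason no library could be left out. Each site list rests on 1 library, so its depth and the caller's threshold limit which pairs of low RNA can show a site.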

Other observations

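The longest pair sites of the dieldrin list were far longer than the single DMSO site that overlapped each of them most. Further DMSO sites under them were not counted. A site of 18190 bp at MIR3613 and KCNRG (chr13:50570997-50589186, hg19) overlapped a DMSO site of 224 bp. One of 11757 bp at HELQ, a DNA helicase gene, and MRPS18C, of the mitochondrial ribosome, overlapped a DMSO site of 3134 bp, and one of 9749 bp at MRPL27 and EME1 a DMSO site of 648 bp. The longest pair sites of the DMSO list, 6765 bp at ABCB9 and ARL6IP4, 6697 bp at TIGD7 and ZNF75A and 6305 bp at CTD-2619J13.23 and ZNF446, overlapped dieldrin sites of 7219, 6850 and 6525 bp. Very short sites were also listed: 32 pair sites of the dieldrin list and 34 of the DMSO list were under 10 bp.

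Sites without an overlap in the other list occurred at abundant pairs too. At the ribosomal protein gene RPS16 and the elongation factor gene SUPT5H the dieldrin list had a site of 251 bp at chr19:39926058-39926308, left of both starts, and the DMSO list one of 249 bp at chr19:39927354-39927602, right of both. NIFK and TSN had 3 dieldrin sites of 146, 186 and 138 bp without an overlap. SRSF9 and DYNLL1 had a DMSO site of 176 bp without an overlap, and GART and SON one of 74 bp.

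Of the promoters of the 65 pair genes that rose with dieldrin, 6 of them in the histone list, 53 were in the RefSeq table (81.5%). Of these, 60.4% held a CCAAT box and 15.1% a TATA box, against 37.4% and 4.64% of the promoters of all pair genes. A GC box stood in 66.0% against 70.9%, and an ETS site in 22.6% against 23.7%. A cyclic AMP response element stood in 3.77% against 3.63%, an AP-1 site in 1.89% against 2.35% and an E-box in 11.3% against 10.2%. The genes were chosen by their RNA and no test was made. Of the pair genes that fell with dieldrin, 65.6% had a promoter in the table, beside 68.5% of all pair genes. In these 40 promoters a CCAAT box stood in 30%, a TATA box in 7.5%, a GC box in 75% and an ETS site in 12.5%. A cyclic AMP response element stood in 5%, an E-box in 12.5% and an AP-1 site in 0%. These genes were also chosen by their RNA, and their shares were not tested.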
